A study of Mus musculus with 16 samples.

Results

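The 7 genes that carry bile acids through the ileal enterocyte or sense them were examined in RNA-seq of mouse ileum: Slc10a2, Fabp6, Slc51a, Slc51b, Abcc2, Abcc3 and Gpbar1. They were taken by symbol from the deposited count table and make up 7 of its 24940 genes. All 7 passed the filter on low counts in every comparison. The study asked how loss of the transcriptional repressor BCL6 in liver affects bile acid handling, and the ileum was sequenced to read the intestinal side. Controls (WT) were C57BL/6 mice with loxP-flanked Bcl6 (Bcl6 fl/fl), and LKO mice carried Alb-cre on the same Bcl6 fl/fl background. Each genotype was represented by 4 males and 4 females, which gives 4 groups of 4 animals. All 16 libraries therefore carry the floxed allele, and the labels give neither age nor feeding state. Per the study's methods, animals were fed freely or fasted for 4 hours unless otherwise noted. Which of these applied to the sequenced ilea is not given. Alb-cre acts in hepatocytes, so the ileal Bcl6 gene is intact in both genotypes by design and any difference in the ileum is one between animals with and without BCL6 in liver. Each sample was about 1 cm of whole intestine next to the cecum, not isolated epithelium.

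Bile acids made in the liver are reclaimed in the terminal ileum. The apical sodium-dependent transporter ASBT (Slc10a2) takes them up from the lumen, the ileal bile acid-binding protein IBABP (Fabp6) binds them in the cytosol, and the heterodimer OSTα/OSTβ (Slc51a and Slc51b) releases them across the basolateral membrane into portal blood. The ABC transporters MRP3 (Abcc3, basolateral) and MRP2 (Abcc2, apical) export bile acid conjugates and other organic anions, and TGR5 (Gpbar1) is a cell-surface bile acid receptor. The farnesoid X receptor FXR (Nr1h4), a nuclear receptor for bile acids, is a known activator of Fabp6, Slc51a and Slc51b and typically binds an inverted repeat of hexamers spaced by a single base.

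The sequence before the gene start was read for the members because FXR acts on several of them through DNA. RefSeq promoters (GRCm38.p6, the assembly of mm10) were found for 6 of the 7 members, all but Abcc3. The 250 bases upstream of the start are shown for the 3 genes that the report turns on most, each 5′ to 3′ on the gene's own strand, with matched motifs in capitals.

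Fabp6, chr11:43601563-43601812, minus strand: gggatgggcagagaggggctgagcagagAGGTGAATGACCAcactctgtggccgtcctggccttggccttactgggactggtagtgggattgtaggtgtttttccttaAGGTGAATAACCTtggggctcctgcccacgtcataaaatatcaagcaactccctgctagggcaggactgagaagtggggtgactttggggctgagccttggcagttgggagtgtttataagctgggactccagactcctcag
Slc51b, chr9:65422774-65423023, minus strand: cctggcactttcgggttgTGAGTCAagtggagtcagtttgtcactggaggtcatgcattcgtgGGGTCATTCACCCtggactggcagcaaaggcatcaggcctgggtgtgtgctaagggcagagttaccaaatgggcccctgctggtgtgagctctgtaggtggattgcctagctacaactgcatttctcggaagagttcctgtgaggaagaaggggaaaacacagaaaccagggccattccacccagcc
Slc10a2, chr8:5105288-5105537, minus strand: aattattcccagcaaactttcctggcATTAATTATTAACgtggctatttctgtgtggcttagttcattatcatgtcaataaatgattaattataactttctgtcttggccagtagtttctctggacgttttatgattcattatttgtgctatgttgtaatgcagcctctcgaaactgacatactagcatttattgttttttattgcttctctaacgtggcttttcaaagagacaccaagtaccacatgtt

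In the Fabp6 and Slc51b sequences the longer capital stretches match the FXR inverted repeat, searched on both strands as AGGTCA or GGGTCA, any 1 base, then TGACCT or TGACCC, with at most 2 mismatches. The GGGTCA and TGACCC forms were added to the search after these sequences had been read. The Slc51b match depends on them, since against AGGTCA and TGACCT alone it exceeds the limit of 2 mismatches. Fabp6 held 2 such matches, at positions -222 to -210 and -142 to -130 from its start, each with 2 mismatches. Slc51b held 1 match at -187 to -175 with 1 mismatch. No match was found in the other 4 windows, while 3.12% of the 27025 promoters searched held one. That share was counted with the widened forms and is no test of the Slc51b match. The capitals of Slc10a2 match an HNF1 motif, GTTAAT and ATTAAC around any 1 base, with 1 mismatch at -224 to -212, and Abcc2 held another with 2 mismatches at -75 to -63. Up to 2 mismatches were allowed, and 1.25% of promoters held such a match. The short capital stretch of Slc51b, on its minus strand, is an AP-1 motif (TGACTCA, 4.43% of promoters), and the LRH-1 motif CAAGGTCA (1.31% of promoters) was found in none of the 6 windows. These motifs do not overlap one another in the windows shown, and a match describes the letters only.

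The libraries held between 15.7 and 20.5 M gene counts, except female LKO replicate 1 with 60.3 M, around a median of 18.1 M. Levels are given as counts per M (CPM) scaled by TMM, the trimmed mean of M-values. A gene without a read could have had up to 3 counts by counting error alone, or 0.0497 to 0.191 CPM depending on the library. The tissue label was checked against marker genes. The summed level of 10 enterocyte markers lay between 22254 and 28544 CPM, and 5 liver markers together reached at most 9.94 CPM. The 7 markers of the proximal small intestine summed to 167 to 672 CPM in male WT, 243 to 319 in male LKO, 92.6 to 141 in female WT and 165 to 367 in female LKO, so that female WT lay below each other group without overlap, while Lct and Pdx1 among them were too low to be tested. The sum was mostly Apoa4, with group means of 325, 253, 104 and 250 CPM in that order. Between male WT and female WT, Fabp1 (2.63 against 4.97 CPM) and Cybrd1 (7.01 against 8.93 CPM) went the other way. Gata4 (1.75 against 1.22 CPM) and Onecut2 went the same way as Apoa4, so 3 of the 5 tested were higher in male WT. Within groups this sum had an r of -0.494 with Slc51a, -0.440 with Slc51b and -0.143 with Fabp6 over the 16 libraries, and its part in the members' differences was not tested. The 6 colon markers summed to between 136 and 1680 CPM, with male LKO replicate 2 and female WT replicate 1 highest, so the pieces differed in their content of colon-type transcripts. The ranges were 15.3 to 352 CPM for 8 B-cell markers, 383 to 502 CPM for 8 macrophage markers and 256 to 373 CPM for 7 L-cell markers. In whole tissue, fewer cells of a type and less RNA per cell cannot be told apart. Each title carries its own number, whose meaning the labels do not state. The libraries were taken as separate animals, and p-values here measure the spread between them.

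The levels of the members spanned 4 orders of magnitude when set per kb of exon. Fabp6 stood first with 7740 ± 1440 CPM per kb (SD, n = 16), between rank 4 and rank 7 of all genes in every library. The OSTβ and OSTα genes followed, Slc51b with 576 ± 86.7 and Slc51a with 500.4 ± 70.3 CPM per kb. The gene of the uptake transporter, Slc10a2, lay below both at 147 ± 30.4 CPM per kb. Abcc3 reached 34.3 ± 6.03, Abcc2 4.16 ± 1.60 and Gpbar1 0.776 ± 0.266 CPM per kb. Each gene exceeded the next in all 16 libraries, except that Slc51b exceeded Slc51a in 15 of 16. Slc51b and Slc51a were thus the only neighbours in this order whose places were exchanged in any library.

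**Figure D1:**
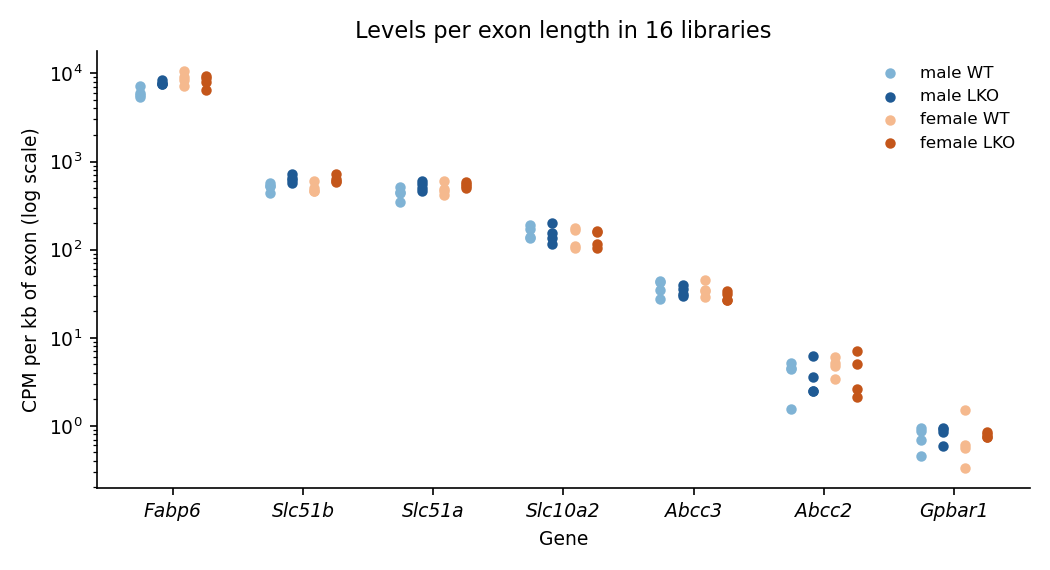
Levels of the 7 genes per kb of exon (CPM per kb, log scale) in 16 libraries, 1 point per library, coloured by group. Fabp6 lies at or above 5338 in every library and Gpbar1 at or below 1.51, and the genes follow the same order in each group, with Slc51b and Slc51a side by side.

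The transcript of the uptake transporter showed no difference between genotypes that exceeded the spread. Slc10a2 (NM_011388, chromosome 8, 5083219 to 5105287, mm10) stood at 784, 693, 559 and 569 CPM in male WT and at 630, 558, 816 and 476 CPM in male LKO. In females it stood at 430, 453, 679 and 711 CPM in WT and at 426, 645, 477 and 662 CPM in LKO. High and low libraries occurred in every group, and the groups overlapped in both sexes. Under edgeR, LKO against WT gave -0.06 on the log2 scale for males (SE 0.18) and -0.04 for females (SE 0.22), and over both sexes its 95% interval ran from a fold of 0.773 to 1.20. Differences inside that interval could not be detected with these animals. Slc10a2 and Abcc2 were the members that followed the enterocyte markers most closely. Across the 16 libraries the deviation from the group mean and that of the marker sum had a Pearson r of 0.72 for Slc10a2. For Abcc2 the r was 0.70. Both values only describe libraries that share the scaling.

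The binding protein gene gave the widest separation in males. Fabp6 (NM_008375, chromosome 11, 43596040 to 43601562) stood at 2992, 3634, 2878 and 2690 CPM in male WT and at 3833, 3852, 3929 and 4204 CPM in male LKO. Every male LKO library lay above every male WT library. The log2 fold change was 0.38 (SE 0.086, 1.30-fold, 95% interval 1.15 to 1.48), with an edgeR quasi-likelihood p of 0.000463 and an adjusted p of 0.177 over all genes, so the call was not made at 0.05. DESeq2, which called 63 genes where edgeR called 8, called it (adjusted p 0.0136), and so did edgeR without male WT replicate 2, the highest control (adjusted p 0.0335, log2 fold change 0.48). In females the libraries stood at 4229, 4534, 3634 and 5422 CPM in WT and at 3308, 4770, 4525 and 3982 CPM in LKO. Those groups overlapped, and the log2 fold change was -0.10 (SE 0.14, adjusted p 0.788). The genotype by sex interaction of Fabp6 was 0.48 on the log2 scale (SE 0.17, unadjusted p 0.0126, adjusted p 0.845), which did not pass.

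Several other measures were set beside the male Fabp6 difference. The summed level of 7 Paneth cell markers was 11560 to 13943 CPM in male WT and 17274 to 20499 CPM in male LKO, without overlap, and 3 of the 7 were called higher in male LKO. Lyz1, Mmp7, Ang4, Defa24, Defa17, Itln1 and Pla2g2a made up that list. Its part in the Fabp6 result was not tested, and within groups the marker sum and Fabp6 had an r of -0.003 across 16 libraries. The title numbers of all male WT animals also lie below those of all male LKO animals, and with the title number as a covariate the Fabp6 difference was 0.34 (adjusted p 1.00). Number and genotype cannot be told apart in males beyond that. In the run of neighbouring numbers that holds 6 libraries and all 4 groups, Fabp6 stood at 2690 CPM in the male WT animal and 3833 CPM in the male LKO animal, against 5422 CPM in the female WT animal and 4770, 4525 and 3982 CPM in the 3 female LKO animals. That male WT animal, replicate 4, was the lowest of its group for Fabp6. Leaving it out gave the smallest male difference among the leave-one-out fits, 0.32. With the enterocyte marker level as a covariate, an alternative chosen after seeing the data, the male difference was 0.37 (adjusted p 0.237).

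**Figure D2:**
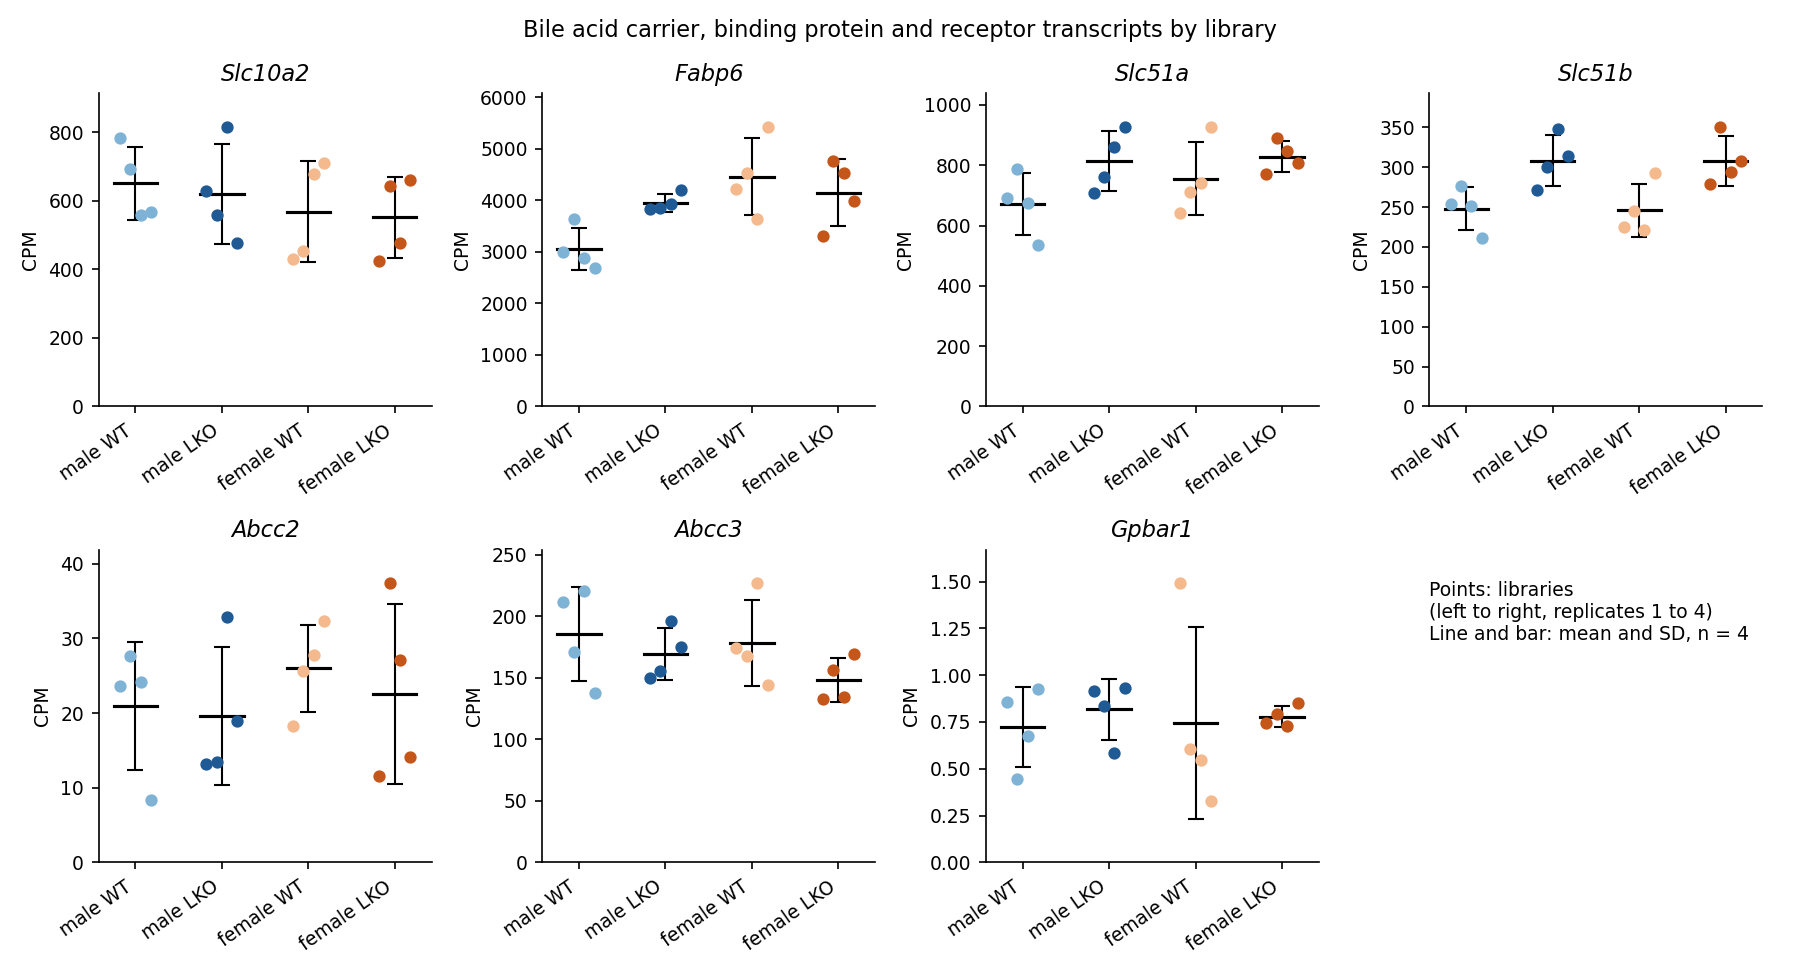
CPM of each member in 16 libraries, 1 panel per gene with its own axis from 0. Points are libraries, lines and bars are the mean and SD of 4. The male LKO points of Fabp6 (3833 to 4204) lie above all male WT points (2690 to 3634), and in each sex 3 of 4 LKO points of Slc51b lie above the highest WT point.

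The OST genes had higher means in LKO in both sexes, and neither passed the test. Slc51b (NM_178933, chromosome 9, 65412753 to 65422773), which encodes the small OSTβ subunit, stood at 253, 276, 252 and 211 CPM in male WT and at 272, 299.8, 348 and 314 CPM in male LKO. In females it stood at 225, 245, 221 and 293 CPM in WT and at 279, 350.3, 294 and 308 CPM in LKO. In each sex the lowest LKO library lay just below the highest WT library and the other 3 lay above it. The log2 fold change was 0.32 (SE 0.092, p 0.00322, adjusted p 0.457) in males and 0.32 (SE 0.096, p 0.0058, adjusted p 0.289) in females under edgeR. Over both sexes, with sex as a covariate and all 16 libraries, it was 0.32 (SE 0.069, 1.25-fold, 95% interval 1.13 to 1.38, p 0.000171). The adjusted p was 0.0502, just outside 0.05. The interaction was -0.01 (SE 0.14), so a difference between the sexes was not detectable.

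Small changes of processing decided the call of Slc51b over both sexes. It passed under DESeq2 (adjusted p 0.00542, among 224 genes called where edgeR called 42), with the enterocyte marker level as a covariate (0.0406), without male LKO replicate 1 (0.0449) and without female WT replicate 4 (0.0228). With the title number as a covariate the log2 fold change was 0.24 (adjusted p 0.41), and with runs of neighbouring numbers as a factor 0.25 (adjusted p 0.66). Across all 28 alternatives the value lay between 0.24 and 0.36. In the run with 6 libraries, Slc51b stood at 211 CPM in the male WT and 272 CPM in the male LKO animal, and at 293 CPM in the female WT animal beside 350.3, 294 and 308 CPM in female LKO. That male WT animal, replicate 4, was also the lowest of its group for Slc51b, and without it the difference in males was 0.25.

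The Slc51b count shares bases with another gene. A 91-base exon of Slc51b, 18.9% of its 482 exon bases, lies within the last exon of Rasl12 on the opposite strand. The counting command names no strand option, and whether reads from those bases were kept apart was not settled for this pair. If both strands were counted, Rasl12 at even coverage would add 1.45% to the Slc51b count through these 91 bases. Slc51b would put 1087 reads on them, where the mean Rasl12 count was 1784. The GENCODE exons compared covered 212 of the 482 Slc51b bases, so more bases may be shared and these are lowest values. The ratio of Rasl12 to Slc51b counts was 0.313 ± 0.0138 (SD, n = 16), between 0.282 and 0.334. Rasl12 had nearly the same differences as Slc51b, with log2 fold changes of 0.37 (SE 0.080) in males, 0.23 (SE 0.093) in females and 0.30 (SE 0.065, adjusted p 0.0502) over both sexes, and is not used as separate evidence.

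Slc51a (NM_145932, chromosome 16, 32475578 to 32487879), the gene of the partner subunit OSTα, stood at 690, 787, 673 and 536 CPM in male WT and at 707, 763, 861 and 927 CPM in male LKO. In females it stood at 641, 712, 741 and 926 CPM in WT and at 771, 889, 847 and 807 CPM in LKO. The groups overlapped in both sexes, and female WT replicate 4 was the highest female library. The log2 fold change was 0.28 (SE 0.12, adjusted p 0.893) in males, 0.14 (SE 0.10, adjusted p 0.601) in females and 0.21 (SE 0.083, p 0.0227, adjusted p 0.335) over both sexes. Slc51a thus did not pass in any of these fits, and none of its 18, 19 and 28 alternatives in them brought a call.

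**Figure D3:**
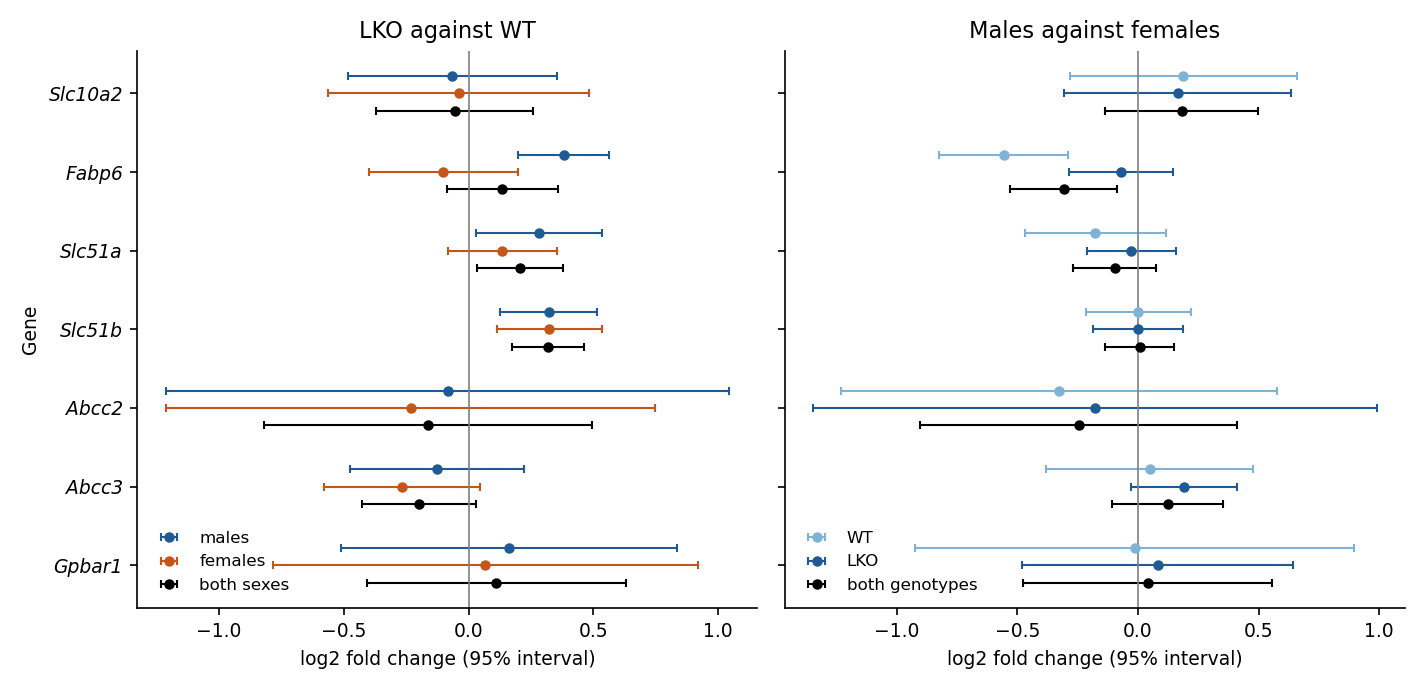
Log2 fold change (x axis) of each gene (y axis) with its 95% interval from edgeR, for LKO against WT (left) and males against females (right). The intervals of Slc51b lie above 0 in both sexes (0.13 to 0.52 and 0.11 to 0.53), those of Fabp6 lie above 0 in males only, and Abcc2 has the widest.

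Abcc3 (NM_029600, chromosome 11, 94343295 to 94392976), the other basolateral exporter gene, lay on the other side of 0 from the OST genes. It stood at 212, 171, 221 and 138 CPM in male WT and at 150, 155, 196 and 175 CPM in male LKO, and the groups overlapped. In females it stood at 174, 168, 227 and 144 CPM in WT and at 133, 157, 134 and 169 CPM in LKO. On the log2 scale LKO against WT gave -0.13 for males (SE 0.15), -0.27 for females (SE 0.14) and -0.20 (SE 0.11, p 0.0839, adjusted p 0.53) over both sexes, where the 95% interval ran from a fold of 0.743 to 1.02. None of the edgeR and DESeq2 fits that were run called it.

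The apical exporter gene Abcc2 (NM_013806, chromosome 19, 43782308 to 43838218) overlapped between genotypes in both sexes. It stood at 23.6, 27.6, 24.2 and 8.41 CPM in male WT and at 13.2, 13.4, 32.9 and 19.0 CPM in male LKO. In females it stood at 18.3, 25.6, 27.8 and 32.4 CPM in WT and at 11.5, 37.4, 27.1 and 14.1 CPM in LKO. Over the 16 libraries the highest exceeded the lowest 4.45-fold, beside 4.54-fold for the sparse Gpbar1 and 1.66- to 2.02-fold for the other 5 members. Male WT replicate 4, the lowest, had 25270 CPM of enterocyte markers, the least of its group. It also had 672 CPM of proximal small intestine markers, mostly Apoa4, the most of all libraries. The part of these in its Abcc2 level was not tested. Over both sexes the log2 fold change of Abcc2 was -0.16 with an SE of 0.31, and its 95% interval, a fold of 0.566 to 1.41, holds a wide range of differences.

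Gpbar1 (NM_174985, chromosome 1, 74278600 to 74279589), the gene of the receptor TGR5, was close to the detection limit. Its counts ranged from 6 in female WT replicate 4 to 26 in female WT replicate 1 among libraries of usual depth, and reached 46 in the deep female LKO library. The level was 0.726 ± 0.214 CPM in male WT, 0.817 ± 0.161 in male LKO, 0.744 ± 0.513 in female WT and 0.779 ± 0.0546 in female LKO (SD, n = 4 each). The exact Poisson 95% intervals of the lowest and the highest library, which cover counting error only, were 0.121 to 0.716 and 0.974 to 2.19 CPM. LKO against WT gave 0.16 on the log2 scale for males (SE 0.32) and 0.07 for females (SE 0.39), and over both sexes the 95% interval ran from a fold of 0.755 to 1.55, inside which a difference was not detectable at this depth.

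Across the genotype comparisons, no member passed the adjusted threshold in edgeR. In males 0 of 7 were called where 0.0527% of all 15169 genes tested were, 3 (Fabp6, Slc51a and Slc51b) had an unadjusted p under 0.05 beside 5.29% of all genes, and DESeq2 called 1. Non-overlapping groups were found for 1 of 7, Fabp6, beside 2.95% of all genes. In females 0 of 7 were called (0.0392% of all genes), 1 (Slc51b) had an unadjusted p under 0.05 beside 11.7% of all genes, DESeq2 called 0, and 0 of 7 had groups without overlap (6.31% of all genes). Over both sexes 0 of 7 were called (0.269% of all genes), 2 had an unadjusted p under 0.05 beside 11.2% of all genes, and DESeq2 called 1. For the interaction 0 of 7 were called, as was 0% of all genes, by edgeR and by DESeq2, and 1 (Fabp6) had an unadjusted p under 0.05 beside 5.64% of all genes. Of all genes, DESeq2 called 63 of 15169 in males, 154 of 15298 in females and 224 of 15598 over both sexes. The median log2 fold change of the 7 was 0.16 in males and -0.04 in females, beside -0.0020 and 0.0070 over all genes tested.

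The sexes were compared within each genotype. Fabp6 was lower in male WT than in female WT, with a log2 fold change of -0.56 (SE 0.12, 0.68-fold, p 0.000662, adjusted p 0.0985). The highest male WT library (3634 CPM) and the lowest female WT library (3634 CPM) were nearly equal, so the absence of overlap rests on less than 1 CPM. These libraries, male WT replicate 2 and female WT replicate 3, lie in the same run of neighbouring title numbers. Among LKO animals the difference was -0.07 (SE 0.099, adjusted p 0.701), and over both genotypes -0.31 (SE 0.11, adjusted p 0.067). In WT, 0 of 7 members were called where 0.250% of all genes were, 1 had an unadjusted p under 0.05 beside 13.9% of all genes, DESeq2 called 1, and 1 of 7 had groups without overlap beside 8.38% of all genes. In LKO, 0 of 7 were called (0.0984% of all genes) and 0 had an unadjusted p under 0.05 beside 22.6% of all genes, DESeq2 called 0, and 0 of 7 had groups without overlap (12.9% of all genes). Over both genotypes 0 of 7 were called although 11.0% of all genes were, 1 had an unadjusted p under 0.05 beside 29.3% of all genes, and DESeq2 called 1. In each case the gene was Fabp6. Of all genes, DESeq2 called 250 of 15229 in WT, 1043 of 15250 in LKO and 2415 of 15598 over both genotypes. Over both genotypes 5 of 6 smooth muscle markers and 4 of 7 Paneth cell markers were called lower in males and 4 of 10 enterocyte markers higher, and with the enterocyte marker level as a covariate the Fabp6 difference was -0.43 (adjusted p 0.133). For Slc51b the same difference was 0.01 (SE 0.069), with a 95% interval from a fold of 0.909 to 1.11.

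Ratios within a library do not depend on its scaling. Per kb, the Fabp6 count was 30.9 to 42.5 times that of Slc10a2 in male WT, 39.0 to 71.5 in male LKO, 43.3 to 81.1 in female WT and 48.7 to 76.9 in female LKO. Male WT and female WT did not overlap, and their log2 ratios differed by -0.76. The exact two-sided permutation test gave p = 0.0286, the smallest that 4 against 4 allows, and 0.229 after adjustment over the 12 ratio tests. Male WT replicates 1 to 3 and female WT replicate 3 share a run of neighbouring title numbers. There the ratio was 30.9, 42.5 and 41.65 in the males and 43.3 in the female. In the run with 6 libraries it was 38.3 in the male WT and 61.7 in the female WT animal. Female WT replicates 1 and 2, at 79.5 and 81.1, lie in a run without males. The part of these runs in the ratio difference was not tested. Male LKO against male WT differed by 0.47 (exact permutation p 0.0857, adjusted 0.257). The ratio of Slc51a to Slc51b was 0.873 ± 0.0759 per kb (SD, n = 16), between 0.778 and 1.054. It was 0.964 ± 0.0735 in female WT and 0.849 ± 0.0482 in female LKO (SD, n = 4 each), a log2 difference of -0.18 (exact permutation p 0.0571, adjusted 0.229). Male WT, at 0.849 ± 0.0406 (SD, n = 4), also differed from female WT by -0.18 (exact permutation p 0.0571, adjusted 0.229). The ratio of Abcc2 to Abcc3 ranged from 0.0566 to 0.221, and its 4 comparisons had exact permutation p-values of 0.314 or more. No ratio passed after adjustment.

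**Figure D4:**
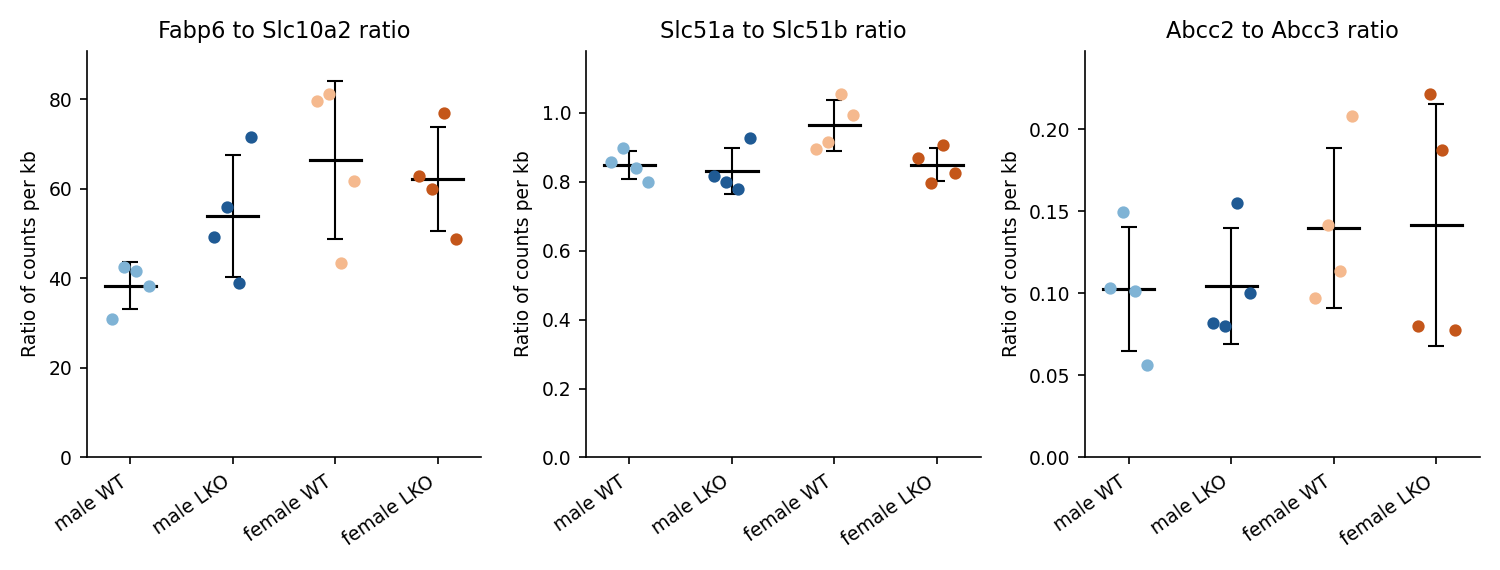
Ratios of counts per kb within each library for 3 pairs of members, 1 point per library, with mean and SD of 4. Fabp6 to Slc10a2 is lowest in male WT (30.9 to 42.5), Slc51a to Slc51b stays between 0.778 and 1.054, and Abcc2 to Abcc3 varies within every group.

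The members also differed in how they moved together among animals of 1 group. Deviations of log2 CPM from the group mean were correlated over the 16 libraries, which share the scaling, and are given as a description. The closest pair was Slc51a and Slc51b with r = 0.86, followed by Slc51b and Abcc2 with 0.79, Slc51b and Fabp6 with 0.78, Slc51a and Abcc2 with 0.77 and Slc51a and Fabp6 with 0.71. Slc10a2 stood further from Fabp6 (r = 0.26) than from Slc51b (0.53). Abcc3 was nearly unrelated to Slc51b (0.19), and the sparse Gpbar1 counts ran against Slc51a (-0.71).

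**Figure D5:**
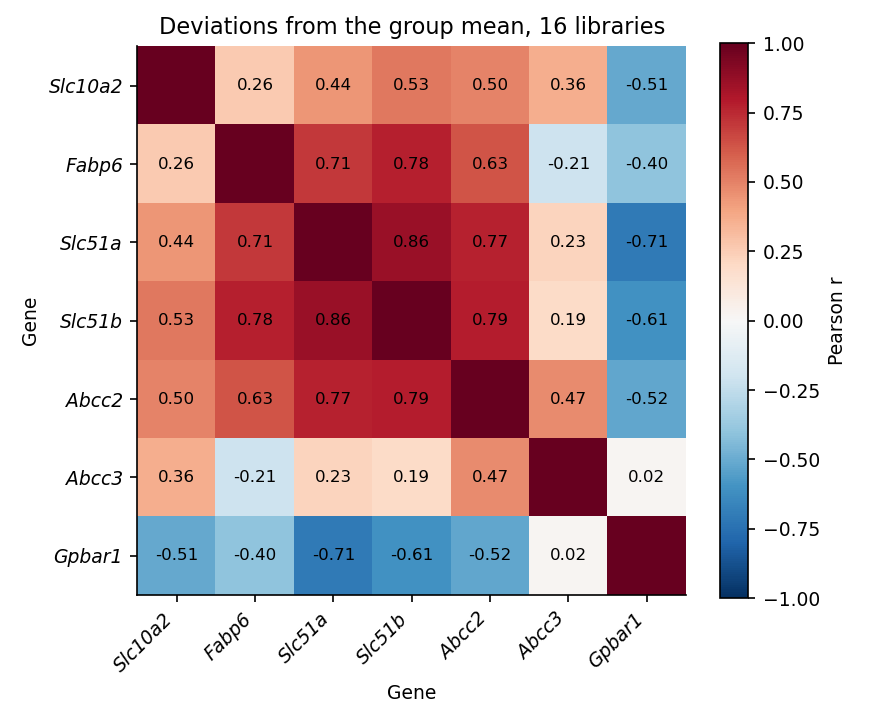
Pearson r between members for deviations of log2 CPM from the group mean over 16 libraries, both axes listing the 7 genes. Fabp6, Slc51a, Slc51b and Abcc2 form a block with r between 0.63 and 0.86. Abcc3 has an r of -0.21 to 0.47 with these genes, and Gpbar1 runs against them (-0.71 to -0.40).

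By the same measure, the genes most like each member were picked from 10102 genes with a mean of at least 10 CPM. For Slc10a2 they were Pax8 (r = 0.94), a transcription factor gene, and Ppp4r1 (0.92), a phosphatase subunit gene. For Fabp6 they were Trpm6 (0.92), which encodes a magnesium channel, and Acot4 (0.88), an acyl-CoA thioesterase gene. Slc51a was closest to Stx5a (0.90), a Golgi syntaxin gene, and to the amino acid transporter gene Slc7a8 (0.90). Slc51b was closest to Rasl12 (0.93), with which it shares exon bases, and to the elongation factor gene Ell (0.91). Abcc2 was closest to the anion exchanger gene Slc26a6 (0.92) and to Chn2 (0.91), Abcc3 to Ubxn8 (0.92) and Lysmd4 (0.88), and Gpbar1 to Gas2l3 (0.80) and Acpp (0.79). These are the highest of many correlations and are no test.

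Other genes of bile acid handling were read from lists, all under edgeR. Of 12 other carriers 9 could be tested, and 0 were called between genotypes in either sex or over both. The liver-type fatty acid-binding protein gene Fabp1, scarce here at 2.63 to 7.84 CPM in group means, was called lower in males over both genotypes (log2 fold change -1.24, SE 0.33, adjusted p 0.0285). The liver carriers Slc10a1, Abcb11 and Abcb4 were too low to be tested. Of 19 regulators 18 were tested and 0 were called for genotype. The FXR gene Nr1h4 had a log2 fold change of 0.05 (SE 0.093) in males and 0.03 (SE 0.084) in females, while Fgf15, which encodes the ileal hormone that represses bile acid synthesis, had 2.69 (SE 0.73, adjusted p 0.656) and 0.89 (SE 0.79, adjusted p 0.678). Hnf4a, a nuclear receptor gene of enterocytes, was called higher in males over both genotypes (0.16, SE 0.038, adjusted p 0.0126). Of 11 genes of bile acid conversion and detoxification 10 were tested. Ugt2b34, a glucuronosyltransferase gene, was called lower in LKO over both sexes (-0.32, SE 0.059, adjusted p 0.031), with 441 ± 52.5 CPM in male WT, 375 ± 9.79 in male LKO, 434 ± 40.8 in female WT and 328 ± 24.5 in female LKO (SD, n = 4 each). Cyp3a13 was called higher in males over both genotypes (0.26, SE 0.057, adjusted p 0.00963). The genes with the smallest p in these lists that were not called were Ugt2b34 (-0.40, SE 0.080), Abcb1a (-0.39, SE 0.19), Malrd1 (-0.28, SE 0.064), Nr3c1 (-0.29, SE 0.077) and Cyp3a25 (-0.95, SE 0.33) in females, with adjusted p-values of 0.128 or more. Slco2b1, an uptake carrier gene, had 0.11 (SE 0.069) in females, and in males Slco3a1 had 0.08 (SE 0.090) and the xenobiotic receptor gene Nr1i2 had 0.15 (SE 0.075). Ugt2b34 (-0.23, SE 0.080), Cyp3a25 (-0.87, SE 0.32) and Abcb1a (-0.18, SE 0.15) were also below 0 in males, with adjusted p-values of 0.70 or more.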

How the data were processed

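RNA-seq was performed by the authors on polyA RNA of 16 ilea with a stranded mRNA kit and single-end reads of 100 bases. Per the labels and the study's methods, reads were aligned to mm10 with STAR 2.5.2, keeping single positions and at most 4 mismatches, and counted over exons with HOMER 4.10 without adjustment, so the deposited values are raw counts, 1 transcript per gene. The counting command in the header names no strand option. In 65 pairs of genes on opposite strands that share exon bases, where counting both strands at even coverage would give the less abundant gene at least 500 reads, its count was 0.86 of that number in the median, and under 10% of it in 3 pairs, with a range of 0.00106 to 3.75. Shared bases were read from GENCODE exons lying inside each gene's interval in the count table. Whether strands were separated was not settled by these pairs.

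Groups and replicate numbers came from the titles. For tests of counts, edgeR 4.0.16 under R 4.3.3 was used, with its quasi-likelihood test, a robust fit, TMM scaling and filterByExpr by group. P-values were adjusted by Benjamini-Hochberg over all genes tested, with a threshold of 0.05. Comparisons of 2 groups used their 8 libraries, and the interaction and the effects over both sexes or genotypes used all 16. Intervals of a log2 fold change use the fit's degrees of freedom. Levels are CPM, and comparisons between genes are per kb of the table's exon length. Ratios were tested by exact permutation over 70 relabellings. The fits were tested on simulated data. DESeq2 1.42.0, other scalings, filters and fits, the replicate block, the title number, a thinned deep library and leaving out each replicate were tried, and the enterocyte marker covariate and the runs of title numbers were added after seeing the data. Other genes were named where past the threshold in a fit over both sexes or genotypes, or as the 2 smallest p-values of a list in either sex. The members and lists were chosen with earlier results of these data known.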

Additional observations from a re-analysis of the deposited data

How the results depend on the processing

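The p-values rest on 4 animals a group, and log2 differences near 0.3 passed or failed the threshold with small changes of the fit. The count of members called kept its value of 0 under every alternative in females, in the interaction and among LKO animals. It became 1 under DESeq2 in males (Fabp6), over both sexes (Slc51b), for sex in WT (Fabp6) and for sex over both genotypes (Fabp6). It also became 1 over both sexes with the enterocyte covariate (Slc51b), and for sex over both genotypes with upper-quartile scaling and with the title number (Fabp6). Leaving out 1 replicate at a time gave counts of 0 to 1 in males, over both sexes, for sex in WT and for sex over both genotypes: 1 without male WT replicate 2 (males and sex in WT, Fabp6), without male LKO replicate 1 or female WT replicate 4 (both sexes, Slc51b), and without female LKO replicate 1 (sex over both genotypes, Fabp6). Over all genes, edgeR called 8, 6, 42, 38, 15 and 1723 in males, in females, over both sexes, for sex in WT, for sex in LKO and for sex over both genotypes, and DESeq2 63, 154, 224, 250, 1043 and 2415. Without a filter edgeR called 25 in males, 15 in females, 71 for sex in WT and 139 for sex in LKO. With the title number as a covariate edgeR called 2 over both sexes and 326 for sex over both genotypes, and with the enterocyte covariate 27 in females and 65 for sex over both genotypes. Why the calls changed was not tested.

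The replicate numbers did not pair the animals: the correlation of same-numbered libraries' deviations lay between -0.104 and 0.256, and not every library correlated best with its own number. With the replicate block edgeR called 16, 15 and 16 genes in males, females and over both sexes, against 8, 6 and 42 without it, and no member. The block turned the sign of 1 member value, Gpbar1 for sex in WT (0.036). The smallest p of the paired ratio test is 0.125, so the Fabp6 to Slc10a2 difference for sex in WT (-0.76) could not pass in it.

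Changes of sign concerned values that were not called. With the title number as a covariate, Slc10a2 in males was 0.25, Fabp6 over both sexes -0.031, the interactions of Slc51a and Abcc2 -0.012 and -0.16, Gpbar1 for sex in WT 0.43, and Slc51b for sex -0.027 in WT, -0.12 in LKO and -0.059 over both genotypes. With runs of title numbers as a factor, Fabp6 over both sexes was -0.11, and for sex over both genotypes Slc10a2 was -0.047, Slc51b -0.12 and Abcc3 -0.12. With the enterocyte covariate, sex in WT gave Slc10a2 -0.20, Slc51b -0.12, Abcc3 -0.0098 and Gpbar1 0.84, sex in LKO gave Slc10a2 -0.15 and Slc51b -0.12, and sex over both genotypes gave -0.19 and -0.11. Slc51b for sex in WT, in LKO and over both was -0.014, -0.046 and -0.029 with upper-quartile scaling and -0.00021, -0.0057 and -0.0017 with at least 10 counts in every library. Its interaction without a filter was 0.0020. With the deep library thinned, Slc51b for sex in LKO was -0.0032 and Gpbar1 in females -0.078.

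Leaving out 1 replicate at a time, the ranges that crossed 0 were as follows. In males Slc10a2 ran from -0.23 to 0.041 and Abcc2 from -0.45 to 0.074. In females Slc10a2 ran from -0.15 to 0.083, Fabp6 from -0.19 to 0.0035, Abcc2 from -0.59 to 0.0079 and Gpbar1 from -0.18 to 0.64. Over both sexes Gpbar1 ran from -0.0060 to 0.37. The interaction ran from -0.19 to 0.087 for Slc10a2, -0.10 to 0.062 for Slc51b, -0.22 to 0.50 for Abcc2, -0.00042 to 0.23 for Abcc3 and -0.48 to 0.34 for Gpbar1. Sex in WT ran from -0.047 to 0.098 for Slc51b, -0.039 to 0.19 for Abcc3 and -0.26 to 0.56 for Gpbar1. Sex in LKO ran from -0.17 to 0.0037 for Fabp6, -0.10 to 0.038 for Slc51a, -0.064 to 0.070 for Slc51b and -0.55 to 0.18 for Abcc2. Sex over both genotypes ran from -0.022 to 0.049 for Slc51b and -0.070 to 0.27 for Gpbar1. For log2 ratios, Fabp6 to Slc10a2 ran from -0.26 to 0.037 in females and from -0.95 to -0.65 for sex in WT, where 3 against 4 cannot give a p under 0.0571, and Abcc2 to Abcc3 ran from -0.21 to 0.26 in males and -0.35 to 0.15 in females. No group of 4 held a member library that stood apart by Dixon's criterion, among 28 groups examined.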
